A study of Mus musculus with 15 samples.

Results

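Platelets carry alpha granules, storage organelles that hold adhesive proteins, clotting factors, growth factors and protease inhibitors and release them when the cell is activated. Most of these proteins are made in the megakaryocyte, which passes on their mRNA together with the granules, and platelets in turn shed many vesicles into the blood. Several of the genes are also used by endothelium, stroma or liver, so that their mRNA in plasma need not come from platelets.

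The mRNA of 10 such cargo genes was followed in the plasma extracellular vesicles (EVs) of 3 kinds of mice. The genes are Srgn, Clu, Sparc, Thbs1, Vwf, F5, Mmrn1, Tgfb1, Timp3 and Selp. They were set as a list of symbols of proteins stored in platelet granules, with no measured value in the rule, and all 10 were present among the 43472 gene rows of the count tables. Bulk RNA-seq had been run on 15 libraries, which were 3 from wild type mice (WT, C57BL/6 by the study's methods), 6 from Sgcb-null mice as the dystrophic model (Dys) and 6 from hypertrophic mice (Hyp). The Sgcb-null mice lack beta-sarcoglycan, part of the complex that anchors the muscle fibre membrane. For the Hyp-derived libraries the labels give the genotype MAGIC F1, a transgene built from hepatocyte growth factor domains, while the study's methods name Mstn-null mice, which lack the muscle growth inhibitor myostatin, so these libraries are called by their condition here. The mice were 3 to 6 months old and untreated, each library held the EVs of 2 to 3 pooled mice, and the RNA was amplified before sequencing. For plasma collection the study's methods name 10 mice per genotype. By these numbers 6 libraries cannot all hold different mice, so that Dys- or Hyp-derived libraries may share mice. The fluid is plasma in the study's methods and serum in the labels.

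Each library had between 27227 and 32563362 reads on genes, with 27227, 7738568 and 601506 in the WT-derived ones. A count of 0 therefore allowed up to 110 CPM (a gene's reads scaled to a common total of reads on genes) in WT replicate 1 but at most 0.0921 CPM in Dys replicate 6. These limits, taken as 3 counts, and the Wilson intervals below cover counting error only, since amplified copies are not independent molecules. For 6 libraries, Dys replicates 4 to 6 and Hyp replicates 1 to 3, the number in the title was crossed with the number of the counts, and the results that rest on them are also given with the 6 exchanged or left out. Sgcb was at 0 reads in 14 libraries, the WT-derived ones included, so that its absence does not check the labels. It had 695 reads (365 CPM) in Hyp replicate 3, which is among these 6 libraries and which the exchange would count as Sgcb-null. Whether the null allele leaves reads of Sgcb was not tested. All 15 platelet and megakaryocyte markers were detected, and their summed level was 27263 to 43890 CPM in WT-, 12398 to 30510 CPM in Dys- and 23831 to 46334 CPM in Hyp-derived libraries. Among the EV markers, Cd9 was found in 15 libraries, Cd81 in 11 and Cd63 in 10.

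The 10 genes together were a small part of the reads counted on genes, from 0.116% to 0.488% in a library, and their mean share was close in the 3 conditions. This total includes the mitochondrial and hemoglobin genes. Their summed level was 3048, 3722 and 2527 CPM in the WT-derived libraries, with a mean of 3099 ± 599 CPM (SD, n = 3). It ran from 1159 to 4345 CPM with a median of 3343 in Dys-derived libraries (3010 ± 1188 CPM, n = 6). In Hyp-derived libraries it ran from 1545 to 4875 CPM with a median of 2865 (3178 ± 1377 CPM, n = 6). As a share of all reads on genes these means were 0.310%, 0.301% and 0.318%, and they differed by far less than the SD within each condition.

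The number of cargo genes with at least 1 read was 3, 10 and 6 in the WT-derived libraries (6.33 ± 3.51). It ran from 4 to 10 in Dys-derived libraries (median 7.5, 7.17 ± 2.48) and from 3 to 10 in Hyp-derived libraries (median 7.5, 6.67 ± 2.66). All 10 genes were seen in only 3 libraries, which were WT replicate 2, Dys replicate 5 and Hyp replicate 2, so each condition had one complete library. Depth and this number did not go together in every library. Dys replicate 6, the deepest library, had no Selp read, and Dys replicate 1 reached 9 genes from 1170610 reads where Dys replicate 3 reached 5 from 2680782. With every library sampled down to 27227 reads, as the mean of 20 draws, the numbers were 3, 9.25 and 5 in WT-, 3.95 to 8.7 in Dys- and 3 to 9.4 in Hyp-derived libraries.

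**Figure D1:**
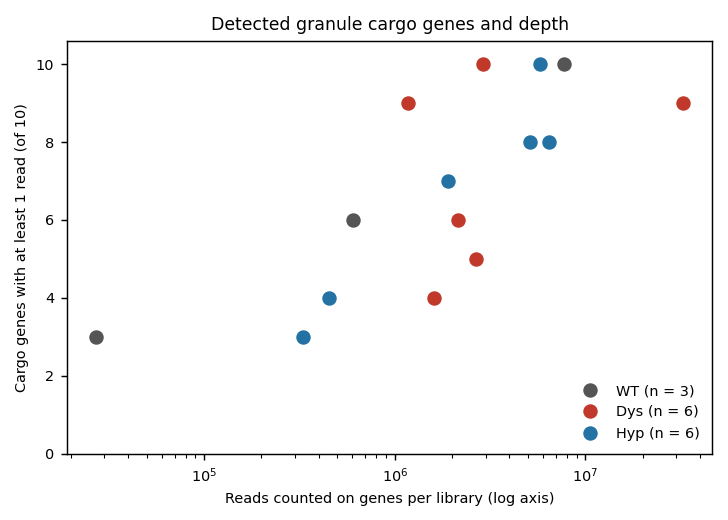
Number of the 10 cargo genes with at least 1 read (vertical axis) against the reads counted on genes in each library (horizontal log axis), one point per library, coloured by condition. Dys replicates 4 and 1, with 4 and 9 genes, lie close to each other in depth (1608699 and 1170610 reads), and the deepest library, Dys replicate 6, holds 9 genes.

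Of the 150 values, 10 genes in 15 libraries, 48 were 0, 6 rested on 1 to 3 reads, 1 on 4 to 9 reads and 95 on at least 10 reads. The genes were thus mostly either well covered or missing altogether. For 41 of the 48 zeros the limit was under 10 CPM. Zeros made up 36.7% of the values in WT-, 28.3% in Dys- and 33.3% in Hyp-derived libraries, against 78.4%, 62.1% and 76.3% over the 13281 genes detected in any library. Those genes include many at lower levels. Detection was also set beside the median of genes of similar mean CPM. Srgn was found in 15 libraries against 15, Clu in 15 against 14, Tgfb1 in 11 against 7 and Thbs1 in 11 against 10. For Vwf it was 11 against 10, for F5 9 against 9 and for Mmrn1 10 against 11. Sparc had 10 against 12, Timp3 6 against 7 and Selp 4 against 3.

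A zero is informative only where reads would have been counted had the gene been at its usual level. Reads were therefore predicted for each gene and library from its mean CPM in the other libraries of the same condition. At least 10 reads were predicted in 134 pairs of gene and library, and 39 of them (29.1%) had none. Over all genes, which were not matched to the 10 by level, the share was 56.1% of 90572 pairs. With at least 100 reads predicted it was 18% of 100 pairs for the 10 genes and 36.03% of 39882 pairs for all genes. Vwf had no read in Hyp replicate 1, where 1953 were predicted, Sparc none in Dys replicate 4, where 1215 were predicted, and Timp3 none in Hyp replicate 6, where 342 were predicted. These gaps differed by gene, with 0 of 15 pairs for Srgn and for Clu, 3 of 14 for Tgfb1 and Vwf, 4 of 14 for Thbs1 and Sparc, 4 of 13 for Mmrn1, 5 of 13 for F5, 8 of 13 for Timp3 and 8 of 9 for Selp. In pooled vesicle RNA, fewer vesicles that carry a transcript and fewer copies per vesicle cannot be told apart.

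Srgn, which encodes serglycin, the proteoglycan core that binds basic cargo inside the granule, was the most abundant of the 10. It is made in many blood cells besides platelets. Its gene (ENSMUSG00000020077.14) lies on chromosome 10 from 62493833 to 62527451, on the minus strand, and this and all positions below are those of mm10. Srgn was present in all 15 libraries, at 331, 1841 and 1574 CPM in WT-derived ones. Values ran from 247 to 2454 CPM with a median of 1232 in Dys-derived and from 664 to 1496 CPM with a median of 1010 in Hyp-derived libraries. The lowest WT value rests on 9 reads (Wilson interval 174 to 628 CPM), and the conditions overlapped widely. The whole range over 15 libraries was 9.94-fold, whereas each of the other genes except Clu had libraries at 0. The summed level of 8 leukocyte markers was 651 to 3611 CPM, and their part in the Srgn level was not tested.

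Clu encodes clusterin, a secreted chaperone that platelets store and liver and many other tissues also make (ENSMUSG00000022037.15, chromosome 14 from 65968483 to 65981547). It was the other gene present in all 15 libraries, at 2020, 997 and 497 CPM in the WT-derived ones. Dys-derived libraries held 82.8 to 949 CPM with a median of 545, and Hyp-derived libraries 335 to 1961 CPM with a median of 817. The highest level of all was in WT replicate 1 and the lowest in Dys replicate 3, and the ranges of the conditions overlapped. That highest level rests on 55 reads (Wilson interval 1552 to 2628 CPM), an interval that holds the 1961 CPM of Hyp replicate 1. The summed level of 6 hepatocyte markers was 0 to 65.8 CPM in WT-, 0 to 156 CPM in Dys- and 0 to 2181 CPM in Hyp-derived libraries, and their part in the Clu level was not tested.

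Srgn and Clu together made up most of the cargo reads. Their share of the reads of the 10 genes ran from 33.1% (Wilson interval 32.2 to 34.0%) in Dys replicate 5 to 84.6% (81.3 to 87.5%) in Hyp replicate 5, with a median of 70.7%. Srgn led in 9 libraries, Clu in 5 and Sparc in 1. That last library was Dys replicate 5, where Sparc alone took 46.3% of the cargo reads (45.4 to 47.2%).

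**Figure D2:**
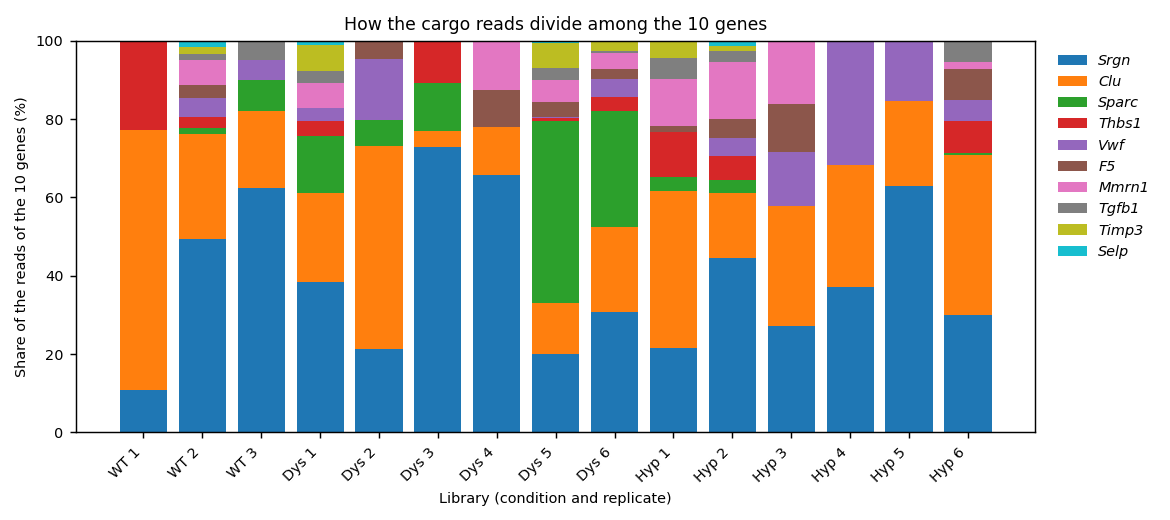
Share of the reads of the 10 cargo genes that each gene took (vertical axis, %), one stacked bar per library in the order WT, Dys, Hyp. Srgn and Clu fill between 33.1% and 84.6% of each bar, and Sparc is the largest part of 1 bar, Dys replicate 5.

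Sparc, or osteonectin, binds collagen and calcium and is made by stromal and endothelial cells as well as by megakaryocytes (ENSMUSG00000018593.13, chromosome 11 from 55394500 to 55423183). It was seen in 10 libraries and differed most between Dys- and Hyp-derived ones. In WT-derived libraries it was at 0, 53.4 and 203 CPM. In Dys-derived libraries the lowest value was 0, the median 343 and the highest 1733 CPM, and 5 of 6 libraries had it. In Hyp-derived libraries the lowest was 0, the median 6.73 and the highest 169 CPM, and 3 of 6 libraries had it. The highest Dys values, 1733 and 1281 CPM in replicates 5 and 6, stood above every other library, while the zero in Dys replicate 4 and the 76.0 CPM in replicate 2 lay within the Hyp range.

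Thbs1 encodes thrombospondin 1, an adhesive glycoprotein that is also able to activate latent TGF-beta (ENSMUSG00000040152.8, chromosome 2 from 118111876 to 118127133). Its level was 698, 108 and 1.66 CPM in WT-derived libraries, the last being a single read. Dys-derived libraries ran from 0 to 229 CPM with a median of 72.6, and Hyp-derived ones from 0 to 566 CPM with a median of 91.6. The spread within WT alone covered all values of the other conditions apart from the zeros and 1 read (0.525 CPM) in Hyp replicate 3. Its top rests on 19 reads in WT replicate 1 (Wilson interval 447 to 1090 CPM). Without that library the WT values, 108 and 1.66 CPM, lie below the highest of the other conditions.

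Vwf encodes von Willebrand factor, the multimer that tethers platelets to exposed collagen, which endothelium also stores (ENSMUSG00000001930.17, chromosome 6 from 125546774 to 125686679). WT-derived libraries held 0, 179 and 126 CPM. The values ran from 0 to 199 CPM in Dys-derived libraries (median 55.6) and from 0 to 749 CPM in Hyp-derived libraries (median 195). Hyp replicates 3, 4 and 5, at 649, 749 and 237 CPM, were higher than every WT- and Dys-derived library, but Hyp replicate 1 had none and replicates 2 and 6 lay inside the range of the others. The summed level of 11 other endothelial markers was 0 CPM in Hyp replicates 4 and 5, and 128 CPM in Hyp replicate 3.

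F5 and Mmrn1 encode a pair of partners: coagulation factor V, the cofactor of the prothrombinase complex, and multimerin 1, the protein that binds factor V in the granule. F5 (ENSMUSG00000026579.8, chromosome 1 from 164151838 to 164220277) was at 0, 120 and 0 CPM in WT-derived libraries. It ran from 0 to 357 CPM in Dys-derived (median 80.9) and from 0 to 579 CPM in Hyp-derived libraries (median 121). Each condition held libraries with none, and the single highest value was in Hyp replicate 3.

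Mmrn1 (ENSMUSG00000054641.10, chromosome 6 from 60924976 to 60989378) was likewise found in WT replicate 2 alone of the WT-derived libraries, at 242 CPM. Its values ran from 0 to 468 CPM in Dys-derived libraries (median 178) and from 0 to 756 CPM in Hyp-derived libraries (median 264). Hyp replicates 1 to 3, which are libraries with crossed numbers, held 582, 492 and 756 CPM, while Hyp replicates 4 to 6 held 2.22, 0 and 36.2 CPM. The partners were seen together in 8 libraries and were both absent in 4, F5 came without Mmrn1 in 1 and Mmrn1 without F5 in 2.

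Selp encodes P-selectin, the adhesion receptor in the granule membrane that moves to the surface on activation (ENSMUSG00000026580.16, chromosome 1 from 164115264 to 164150026). It was the rarest of the 10, with reads in 4 libraries. They were WT replicate 2 at 59.2 CPM, Dys replicates 1 and 5 at 34.2 and 23.5 CPM, and Hyp replicate 2 at 45.9 CPM. Where it was seen, Selp kept within a 2.52-fold range, and elsewhere it was at 0. Selp and F5 are neighbours on the same strand, 1811 bases apart, yet were seen together in 3 libraries, with F5 alone in 6 and Selp alone in 1.

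Tgfb1, the growth factor that platelets hold in latent form, was seen in 11 libraries (ENSMUSG00000002603.15, chromosome 7 from 25687002 to 25705077). Its level was 0, 59.3 and 125 CPM in WT-derived libraries. The values ran from 0 to 116 CPM in Dys-derived (median 15.8) and from 0 to 254 CPM in Hyp-derived libraries (median 45.9). In 3 of the 11 libraries the gene rested on only 2 reads, so that 8 libraries carried it firmly.

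Timp3, an inhibitor of metalloproteinases that binds the extracellular matrix, was seen in 6 libraries (ENSMUSG00000020044.13, chromosome 10 from 86300372 to 86349506). WT replicate 2 had 63.4 CPM and the other WT-derived libraries none. In Dys-derived libraries the lowest value was 0, the median 55.3 and the highest 233 CPM. In Hyp-derived libraries only replicates 1 and 2 had it, at 221 and 43.6 CPM. Detection was nested for part of the list: the 4 libraries with Selp also had Timp3, the 6 with Timp3 also had Sparc, Tgfb1 and Mmrn1, and the 10 with Sparc also had Tgfb1.

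**Figure D3:**
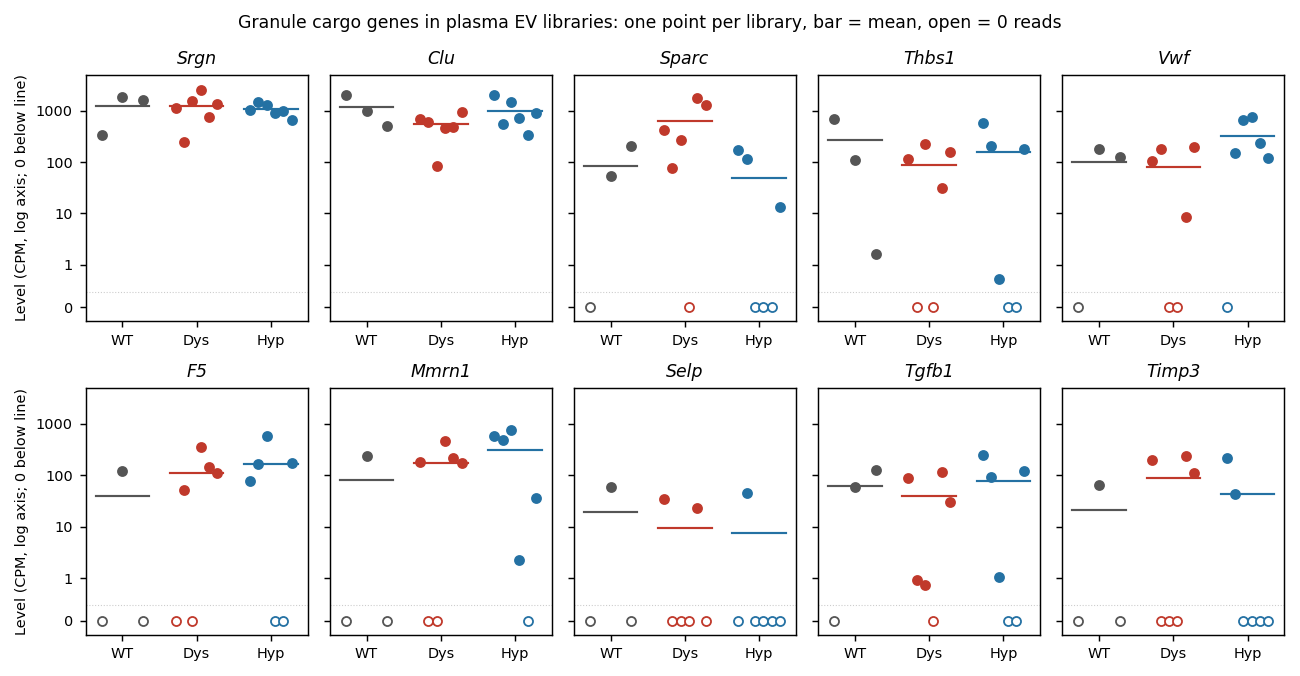
Level of each of the 10 cargo genes (vertical axis, CPM, log scale with 0 below the dotted line) in each library of the 3 conditions, one point per library, with open points for 0 reads and a bar at the mean of the condition. Srgn and Clu have no open point, Selp has 11, and Sparc reaches 1733 CPM in Dys- but 169 CPM in Hyp-derived libraries.

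Levels of different genes were compared per kilobase of exons, as the mean over 15 libraries. Srgn came first with 533 ± 263 CPM per kilobase, then Clu with 246 ± 164 and Sparc with 76.2 ± 136. Srgn was above Clu in 12 of 15 libraries and Clu above Sparc in 12 of 15. Mmrn1 (35.8 ± 42.7), Thbs1 (25.2 ± 35.1), F5 (15.96 ± 21.7), Tgfb1 (11.8 ± 14.6), Vwf (11.2 ± 14.1), Timp3 (7.11 ± 10.9) and Selp (2.46 ± 4.52) followed. From Sparc down, neighbours in this order differed by less than the SD over libraries. With the longest transcript as the length, 7 of 10 ranks stayed and Tgfb1, Vwf and F5 changed places. Among the 13281 detected genes ordered by mean CPM, Srgn ranked 96, Clu 141 and Sparc 417, and Selp ranked 6440.

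The conditions were compared gene by gene to ask whether the muscle phenotype of the donor mice went with a change in platelet cargo mRNA in the EVs. All 10 genes passed the filter on low counts, and the test ran over 6887 genes in all 15 libraries at once. None of the 10 was called in any of the 3 comparisons by edgeR's quasi-likelihood test at a Benjamini-Hochberg adjusted p under 0.05, nor by DESeq2. Of all genes, edgeR called 0.0145% for Dys against WT, 0.029% for Hyp against WT and 0.0145% for Hyp against Dys. DESeq2 called many more of them, 1315 (19.1%), 1528 (22.2%) and 323 (4.69%), without a cargo gene among them. At an unadjusted p under 0.05 edgeR marked 0, 0 and 1 of the 10, against 2.02%, 8.02% and 12% of all genes, and DESeq2 marked 0 in each comparison. No cargo gene had levels that did not overlap between conditions, which held for 0.755%, 0.45% and 0.16% of all genes. The common biological coefficient of variation was 3.04, a value fitted over all genes for the spread between libraries of one condition. The p-values measure the spread between these pooled libraries, some of which may share mice.

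In Dys- against WT-derived EVs, 4 cargo genes had a higher and 6 a lower fitted level, with a median log2 fold change of -0.36 against 1.38 over all genes tested. The median over all genes depended on the scaling, and was 1.57 without TMM normalisation and 1.58 with DESeq2. It depended far more on the WT-derived libraries, with 2.08, 8.15 and 5.18 without WT replicate 1, 2 and 3, and was 0.53 with the 9 libraries of matching numbers. Sparc had the largest positive estimate, with a log2 fold change of 2.86 (SE 2.0) and an adjusted p of 0.464 by edgeR's quasi-likelihood test. Timp3 was at 2.09 (SE 3.23), F5 at 1.24 (SE 2.61) and Mmrn1 at 0.94 (SE 2.13). Thbs1, Selp and Clu had the lowest estimates, at -1.08 (SE 2.31), -1.07 (SE 3.38) and -0.76 (SE 1.28). Srgn, at -0.24 (SE 1.12), turned to 0.0059 with DESeq2, and its SE was the smallest of the 10. Each estimate except that of Sparc was smaller than its SE.

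In Hyp- against WT-derived EVs, 5 genes had a higher and 5 a lower fitted level, with a median log2 fold change of -0.11 against 0.66 over all genes tested. That median over all genes was 1.02 without TMM normalisation and 0.96 with DESeq2. It was 5.96 without WT replicate 2, 0.20 without Hyp replicate 2 and 0.059 without Hyp replicate 6, and turned to -0.12 with the 9 libraries of matching numbers. The factor V partners were the highest, F5 at 1.65 (SE 2.67) and Mmrn1 at 1.55 (SE 2.20), and Vwf followed at 0.81 (SE 2.38). Selp at -1.45 (SE 3.35), Sparc at -1.11 (SE 1.66) and Srgn at -0.72 (SE 1.11) were the lowest. Tgfb1 stood at 0.017 (SE 2.92), an estimate whose error spans large changes in both directions. All 10 estimates were smaller than their SE, and the smallest adjusted p by edgeR's quasi-likelihood test was 0.895, for Mmrn1. Each pair of comparisons shares the libraries of a condition.

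**Figure D4:**
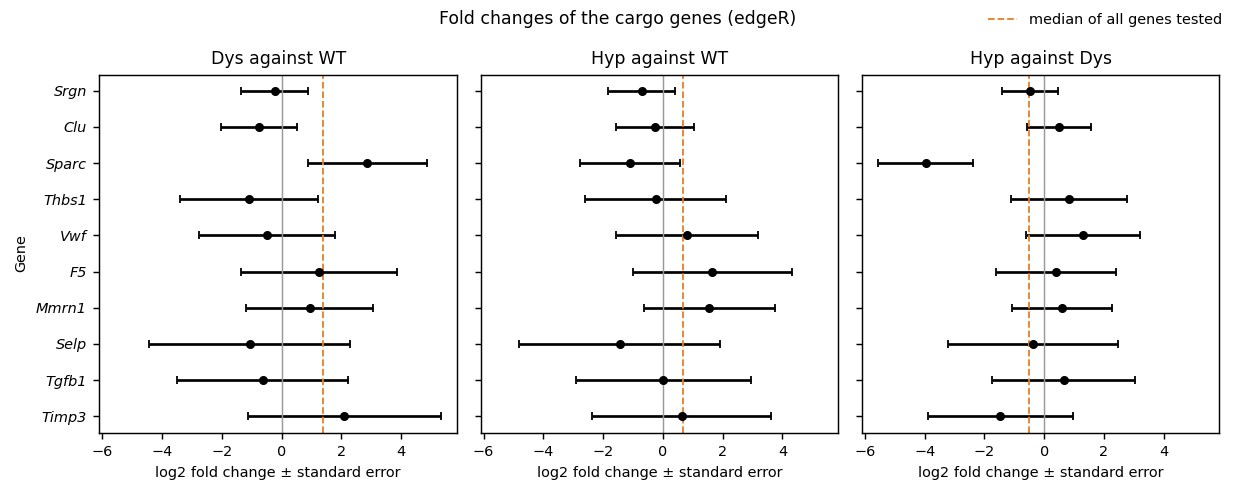
Log2 fold change of each cargo gene with its standard error (horizontal axis) in the 3 comparisons, from edgeR. The dashed line is the median of all 6887 genes tested, and Sparc, at -3.97 in Hyp against Dys, is the only gene of the 10 with an unadjusted p under 0.05.

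In Hyp- against Dys-derived EVs, 6 genes had a higher and 4 a lower fitted level, with a median log2 fold change of 0.44 against -0.52 over all genes tested. Without TMM normalisation the latter was -0.37, with DESeq2 -0.35 and with the 6 crossed libraries exchanged -0.12. It ran from -0.82 to -0.29 when 1 library was left out. Sparc had a mean of 49.8 ± 74.1 CPM in Hyp- and 629 ± 710 CPM in Dys-derived libraries. Its log2 fold change was -3.97 (SE 1.58), with an unadjusted p of 0.0119 and an adjusted p of 0.131 by edgeR's quasi-likelihood test, so it did not pass. Vwf at 1.30 (SE 1.91) and Thbs1 at 0.84 (SE 1.95) had the highest estimates, and Timp3 stood at -1.47 (SE 2.42). The other 6 estimates lay between -0.48 for Srgn and 0.65 for Tgfb1.

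Over the fits that left out 1 library the Sparc log2 fold change stayed between -4.64 and -3.29, while its p moved. Leaving out Dys replicate 5 gave a log2 fold change of -3.29 with an adjusted p of 0.982, and leaving out Dys replicate 6 gave -3.57 with an adjusted p of 0.591, both by edgeR's quasi-likelihood test. With the 6 crossed libraries exchanged between the conditions the sign turned, to 2.03, and with only the 9 libraries of matching numbers it was -5.50 with an adjusted p near 1. The library numbers in the titles fall into a lower and an upper series. Within the lower one Sparc was at 254 ± 174 CPM in Dys- and 95.1 ± 86.6 CPM in Hyp-derived libraries (n = 3 each), and within the upper one at 1005 ± 899 and 4.49 ± 7.77 CPM (n = 3 each). By the numbers given to the counts, every Hyp-derived library is in the upper and every other library in the lower series, so that this series and the hypertrophic condition cannot be told apart.

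Stromal markers were highest and lowest in some of the same libraries as Sparc. The summed level of 6 stromal markers was 0 to 1165 CPM in WT-, 0 to 1368 CPM in Dys- and 6.08 to 547 CPM in Hyp-derived libraries, with medians of 646, 642 and 389. Dys replicate 5, with the most Sparc, had the highest sum at 1368 CPM, and Dys replicate 4 and WT replicate 1, both without Sparc, had a sum of 0. Other libraries did not follow this order. The stromal sum was 1165 CPM in WT replicate 3 with 203 CPM of Sparc, 547 CPM in Hyp replicate 3 with none, 477 CPM in Hyp replicate 6 with 13.5 CPM, and only 335 CPM in Dys replicate 1 with 425 CPM. The sum of 11 endothelial markers was also highest in Dys replicate 5, at 797 CPM, and was 754 CPM in Dys replicate 6. It was 0 CPM in Hyp replicates 4 and 5, both without Sparc. But it was 728 CPM in Dys replicate 4 without Sparc and 771 CPM in Dys replicate 2 with 76.0 CPM. Its medians were 441, 741 and 258 CPM in WT-, Dys- and Hyp-derived libraries. All 6 stromal markers were detected in some library. Dcn led the sum, with means of 491, 204 and 198 CPM in WT-, Dys- and Hyp-derived libraries. Col1a1 had 95.9, 81.3 and 63.5 CPM, Col1a2 0.554, 170 and 10.7 CPM and Lum 0, 60.8 and 14.2 CPM. The 5 tested had median log2 fold changes of 2.46, -0.28 and -1.73 in the 3 comparisons, beside 1.38, 0.66 and -0.52 over all genes. edgeR called 0. DESeq2 called Col1a2 and Lum higher in Dys- and Lum in Hyp- than in WT-derived EVs, beside 19.1% and 22.2% of all genes. The part of either list in the Sparc difference was not tested.

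Other genes of the platelet granule programme were read from the same tests. Of 40 further cargo genes 36 were detected and 28 tested, and edgeR called 0 in each comparison, with 0, 0 and 2 at an unadjusted p under 0.05. DESeq2 called the chemokine Cxcl12 and the growth factor Vegfc higher in Dys- than in WT-derived EVs, the chemokine Ccl5 and Vegfc higher in Hyp- than in WT-derived EVs, and 0 genes for Hyp against Dys. These 2 of 28 genes stand beside 19.1% and 22.2% of all genes called by DESeq2 in the same comparisons. The chemokines Ppbp and Pf4 led this list with mean levels of 11443 and 6827 CPM, both in 15 libraries, and Ccl5 followed at 497 CPM. Their summed level was 18154 to 29346 CPM in WT-, 11380 to 19567 CPM in Dys- and 18915 to 32082 CPM in Hyp-derived libraries, several times that of the 10 genes.

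Of 22 genes for the formation and release of alpha granules, 20 were detected, 18 tested and 0 called by edgeR in each comparison, with 0, 0 and 1 at an unadjusted p under 0.05. DESeq2 called 0, 0 and 1, the last being Rab27a, a GTPase of granule secretion, which was lower in Hyp- than in Dys-derived EVs. Their leading genes encode parts of the SNARE machinery that fuses granules with the plasma membrane, which were Snap23 at a mean of 789 CPM, Stx11 at 577 CPM and Vamp8 at 237 CPM. Of 24 receptors and binding partners of the cargo, 21 were detected, 17 tested and 0 called by edgeR, with 0, 1 and 1 at an unadjusted p under 0.05. DESeq2 called Eng, Furin and Itgav higher in both comparisons with WT, and Lrp1 lower in Hyp- than in Dys-derived EVs. These 3 of 17 genes, and 1 of 17 for Hyp against Dys, stand beside the 19.1%, 22.2% and 4.69% of all genes that DESeq2 called. Of the genes that only DESeq2 called, Vegfc, Eng, Furin and Itgav had 0 reads in all 3 WT-derived libraries and reads in 3 to 5 libraries in all, and Rab27a had 0 reads in all 6 Hyp-derived libraries. Lrp1 was seen in 1 Hyp-derived library (mean of the condition 0.0326 CPM) and Cxcl12 in 1 WT-derived library (0.129 CPM). The list of receptors and binding partners was led by subunits of the platelet receptors for von Willebrand factor and fibrinogen, Gp9 at 1294 CPM, Itga2b at 423 CPM and Gp1bb at 284 CPM. The median log2 fold changes in Hyp- against Dys-derived EVs were 0.01, -0.35 and 0.41 for the 3 lists, beside -0.52 over all genes tested.

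Across the 15 libraries the cargo genes did not rise and fall as a block. Over their 45 pairs the Spearman correlation of CPM had a median of 0.16, ran from -0.58 for Thbs1 and Vwf to 0.75 for F5 and Mmrn1, and was positive in 32. The libraries share depth and dropouts, so these values are a description. For F5, Mmrn1 ranked 9 of the 6886 other genes by this measure, and for Mmrn1, F5 ranked 34. Sparc and Timp3 had 0.69, Timp3 and Selp 0.62, and Tgfb1 and Sparc 0.61. In these pairs many other genes ranked higher. Timp3 ranked 420 for Sparc and Sparc 609 for Timp3, Selp 1075 for Timp3 and Timp3 572 for Selp. Sparc ranked 612 for Tgfb1 and Tgfb1 1088 for Sparc.

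The genes outside the list whose level ran most alike over the 15 libraries differed from one cargo gene to the next. For Clu they were H3f3a (0.91), Snap23 (0.85) and Mctp1 (0.82), for Srgn Wrnip1 (0.76), Dcps (0.74) and 1110007C09Rik (0.71), and for Sparc Kank2 (0.88), Ctbp1 (0.87) and Tcf7 (0.86). Thbs1 ran most like Rapgef1 (0.94), Fam129b (0.93) and Cat (0.90), and Vwf most like Uqcrh (0.84), Tlk1 (0.83) and Cse1l (0.80). For Tgfb1 they were Hpgd (0.93), Ltb (0.92) and Eif5b (0.92). None of these genes was shared by a pair of cargo genes. Detection differed among them, from 15 libraries for H3f3a and Snap23 to 7 for Kank2, 6 for Cse1l and 5 for Dcps. Shared zeros therefore enter these values, which are a description.

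In the GENCODE M21 annotation Selp, F5, Thbs1 and Timp3 share exon bases with a gene on the opposite strand. The overlapping genes had 0 reads in all libraries apart from Gm16587, antisense to Selp. It had 596 reads (18.3 CPM) in Dys replicate 6, where Selp was at 0, and 1 to 4 reads in 8 other libraries. The labels name a stranded mRNA kit and the study's methods one that does not mark strand, and whether reads were counted by strand is not given in the sources used here, so reads of Selp and Gm16587 cannot be told apart with certainty.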

How the data were processed

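The authors aligned single reads of 50 bases with TopHat to mm10 and deposited unnormalised counts of reads for every gene symbol in each library. HTSeq and DESeq are named in the submitters' processing notes. The 5 summary lines of each table, 57.9% to 99.2% of its total, were left out. CPM is counts over all gene rows. Identifiers, positions and exon lengths came from GENCODE M21, in which all 10 symbols matched. Conditions were compared by a quasi-likelihood fit to all 15 libraries without covariates (edgeR 4.0.16, limma 3.58.1, R 4.3.3), after TMM and filterByExpr. This step was tested on simulated data. The SE of a log2 fold change was derived from this test, as its absolute value over the square root of the F statistic. It is thus no separate measure of error beside the p-value. Benjamini-Hochberg adjustment ran over 6887 genes. DESeq2 1.42.0, no TMM, no filter, no mitochondrial or hemoglobin genes, exchanged or only matching libraries, and leaving out each library were alternatives. The prediction of reads and a covariate for the lower and upper series of title numbers were added after seeing the data. The 10 genes and all lists were chosen with earlier results of these data known. Genes that DESeq2 alone called were named after their values were seen. Named besides the 10 were the 3 most abundant genes of a list and, for cargo genes in at least 10 libraries, the 3 genes of highest Spearman correlation, which are not reported here for Mmrn1. Libraries were grouped by genotype label, and replicate numbers only name them. Nothing states that libraries came from separate preparations. Promoter and protein sequences were not used here.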

Additional observations from a re-analysis of the deposited data

Results flagged for a closer look

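Single libraries stood apart in 4 of 24 groups of 6 libraries examined, by a gap to the nearest library above 0.625 of the group's whole range. Chance gives this in about 1 in 20 groups, and groups with many zeros meet it easily. All 4 were high values in Hyp-derived libraries with crossed numbers. Thbs1 was at 566 CPM in Hyp replicate 1, where the next library held 207 CPM. F5 was at 579 CPM in Hyp replicate 3, with 175 CPM next. Timp3 was at 221 CPM in Hyp replicate 1, with 43.6 CPM next, and Selp at 45.9 CPM in Hyp replicate 2, the only Hyp-derived library with a read of it.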

How the results depend on the processing

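None of the 10 genes was called under any alternative, and the smallest adjusted p was 0.0836, for Sparc in Hyp against Dys without a filter (edgeR, Benjamini-Hochberg). Directions were less stable: 7 of the 30 fold changes kept theirs under every alternative that gave them a value, namely Sparc, Timp3 and Clu in Dys against WT, Srgn, Vwf and F5 in Hyp against WT, and Timp3 in Hyp against Dys. The cause was not tested. In Dys against WT, Srgn turned to 0.0059 with DESeq2, Vwf to 0.36 with the 6 crossed libraries exchanged, F5 to -1.82 and Mmrn1 to -0.53 with the 9 matching libraries, in which Timp3 and Selp failed the filter and have no value, and Selp to 1.998 with a covariate for the series of title numbers. In Hyp against WT, exchange gave Tgfb1 -0.48 and Sparc 2.64, the 9 libraries gave Tgfb1 -0.76 and Mmrn1 -2.84, and Thbs1 was 0.28 without a filter and 0.019 with the covariate. In Hyp against Dys, exchange gave Srgn 0.13, Tgfb1 -0.39, Thbs1 -1.12, Vwf -0.13, Mmrn1 -0.96, Sparc 2.03 and Clu -0.32, the 9 libraries gave Thbs1 -0.41 and Mmrn1 -2.31, and the covariate gave Mmrn1 -0.73. Leaving out 1 library at a time turned the sign of 12 values. In Dys against WT, Srgn ran from -0.75 to 0.091, Tgfb1 from -1.21 to 0.42, Thbs1 from -1.65 to 0.42 and Selp from -2.18 to 8.49. In Hyp against WT, Tgfb1 ran from -0.55 to 1.06, Thbs1 from -0.82 to 1.24, Sparc from -1.67 to 0.51, Timp3 from -1.41 to 10.46, Clu from -0.53 to 0.040 and Selp from -9.73 to 8.11. In Hyp against Dys, F5 ran from -0.37 to 1.04 and Selp from -8.49 to 0.70. Values past 8 arise where a condition is left with zeros only and depend on the prior count, so they are no bounds.

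The number of all genes called moved from 1, 2 and 1 in the 3 comparisons to 1315, 1528 and 323 with DESeq2, and to 0 in each without a filter and without mitochondrial and hemoglobin genes. In Dys against WT it was 3 without TMM, 2 with exchange and 3 with the 9 libraries. In Hyp against Dys it was 0 with exchange and with the 9 libraries. Leaving out each library gave 1 to 2, 1 to 3 and 0 to 2. The mean summed level in WT-derived libraries rose to 4234 CPM without mitochondrial and hemoglobin genes in the total. The share of zeros where reads were predicted was 18% at 100 or more reads predicted and 29.5% without WT replicate 1. Without 1 library the mean number of cargo genes detected was 4.5 to 8 in WT-, 6.6 to 7.8 in Dys- and 6 to 7.4 in Hyp-derived libraries. No paired analysis was possible because each library number in the titles belongs to 1 library and none is shared between conditions. With 27227 reads, 1 read in WT replicate 1 is worth 36.7 CPM and a zero there allows up to 110 CPM.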
